A study of Mus musculus with 20 samples.

Results

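Long intergenic noncoding RNAs (lincRNAs) are transcripts read from genes of their own, mostly spliced and polyadenylated like messenger RNA, that carry no long open reading frame. Some act in the nucleus on chromatin or splicing, some pair with microRNAs or messenger RNAs in the cytoplasm, and others serve mainly as carriers from whose introns small nucleolar RNAs (snoRNAs) or microRNAs are cut. In fetal liver, where hepatocytes share the organ with blood-forming cells, the best known of them are imprinted transcripts of fetal growth regions.

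The 195 genes described here were chosen by their annotated type and their measured level. They are the genes of biotype lincRNA in the mm9 annotation (GENCODE M1), without H19 and Meg3, that had a mean of at least 1 CPM (a gene's counts divided by the pup's total and scaled to 1000000) over 20 pups. The annotation holds 1272 such genes, of which 1135 had at least 1 count and 195 reached that level, out of 14892 genes of all types that did. In 184 of the 195, each group alone had a mean of at least 1 CPM, in 8 the control group alone did and in 3 the MNR group alone did. All 195 had a count in every pup and all 195 were tested. Just inside the level were A430018G15Rik (1.005 CPM), Gm16244 (1.01 CPM), Gm16799 (1.01 CPM), 2610020C07Rik (1.02 CPM) and Gm10524 (1.02 CPM). Just outside it were 2900052L18Rik (0.988 CPM), Gm16845 (0.969 CPM), Gm4419 (0.957 CPM), A330050B17Rik (0.944 CPM) and 5031434O11Rik (0.942 CPM).

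Polyadenylated RNA of the right liver lobe was sequenced from 20 male fetuses of the outbred CD-1 IGS mouse strain at embryonic day 18.5. Control dams gave 10 pups and dams under maternal nutrient restriction (MNR) gave 10, with 5 litters a group and 2 pups a litter. How intake was restricted is not stated in the labels. Counts were summed over littermates, so that the litter is the replicate, and the groups share strain, sex, age and liver lobe. Each change is a log2 fold change, with positive values higher in MNR litters, from edgeR's quasi-likelihood test on 5 against 5 litters, with a standard error (SE) and a p adjusted over all 17573 genes tested (threshold 0.05). Values per litter are CPM scaled between libraries, given as mean ± SD over 5 litters.

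The pups' libraries held 14925778 to 28016953 counts. The liver identity was clear, since all 11 gene entries of the hepatocyte marker list were tested and together made up 177500 to 221700 CPM in a litter. In 3 pups (control B_1, MNR B_1 and MNR E_1) the pancreatic enzyme transcript Cpa1 stood at 6.90 to 29.2 CPM, against at most 1.92 CPM in the other 17. None of the 10 marker lists for hepatocytes, blood lineages, macrophages, endothelium, stellate cells, bile ducts and pancreas had a gene past the threshold by edgeR, where 19 of 74 genes had an unadjusted p under 0.05. DESeq2 called 5 of the 74 and limma-voom 3. Over all genes tested, 19.6% had an unadjusted p under 0.05, and DESeq2 called 7.49% and limma-voom 6.74%. The median changes of the lists nevertheless differed. All 6 B cell precursor genes (median -0.45), all 11 erythroid genes (-0.11) and all 7 stellate cell genes (-0.25) had values below 0. All 6 megakaryocyte genes (0.25), all 9 neutrophil and granule genes (0.26) and 8 of 9 macrophage genes (median 0.14) had values above 0. The medians of the hepatocyte, endothelial, bile duct and pancreas lists were -0.03, -0.04, 0.03 and 0.05. The part of cell makeup in the changes of single lincRNAs was not tested, and in whole tissue fewer cells of a type and less RNA per cell cannot be told apart.

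The label lincRNA is that of an older annotation, and later annotation changed it for some genes. A later RefSeq table (GRCm38.p6) had an entry for 161 of the 195, 137 by the same symbol and 24 by an older one. It lists 144 of them as long noncoding RNA, 9 as protein coding, 7 as pseudogenes and 1 as a snoRNA, and 34 were not matched. The 9 listed as coding include Bbip1, a small subunit of the BBSome complex of cilia, Nlrc5, a regulator of MHC class I genes, and 1190007F08Rik, now Smim1, the red cell membrane protein that carries the Vel blood group. The 7 pseudogenes include Atp10d, Abhd1, Ppp4r1l-ps and Gpr137b-ps. RefSeq gives a newer name to several of the clone names used below. 1700020I14Rik is Oip5os1, known as Cyrano. 6720401G13Rik is Firre, B230206F22Rik is Ftx, Enox is Jpx, and Gm5101 is Panct2.

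Sequences of 2 kinds are shown, start-site windows of a few chosen genes and microRNAs that lie in the lincRNA genes. The host genes of snoRNAs often start transcription at a C followed by a run of pyrimidines, the start found on messenger RNAs of ribosomal proteins. RefSeq start-site windows of 30 bases (10 before the start and 20 from it, GRCm38.p6) are given with the pyrimidine run that begins at the start in capitals.
Gas5 (chr1:161035156-161035185, + strand): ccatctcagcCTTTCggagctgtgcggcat
Snhg7 (chr2:26640225-26640254, - strand): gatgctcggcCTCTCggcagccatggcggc
Snhg12 (chr4:132308668-132308697, + strand): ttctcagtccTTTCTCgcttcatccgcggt
2410006H16Rik (chr11:62602867-62602896, + strand): cgccgtctttCTCTgcggccatcatgggat
1700020I14Rik (chr2:119594286-119594315, + strand): ggggcggagcCTTTCgcgcctccgcccctg
Snhg5 (chr9:88522878-88522907, - strand): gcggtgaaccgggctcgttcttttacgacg
Gas5 has a second RefSeq start upstream of the one shown, and Snhg5 has no pyrimidine at its listed start. 1700020I14Rik holds no annotated snoRNA and has the same 5 letters at its start as Gas5. A C at the start followed by 4 pyrimidines was found in 2 of 14 snoRNA host genes with a promoter entry (14.3%), in 10 of 122 lincRNA genes with one (8.20%) and in 813 of 27025 genes in all (3.01%). A gene counts when any of its listed starts has it.

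MicroRNA hairpins of RefSeq were searched for by exact match in the mm9 sequence of 187 of the genes, on the strand of each, and the other 8 were not searched. They were found in 7 members, 19 hairpins in all. Mirg, a transcript of the imprinted Dlk1-Dio3 region on chromosome 12, held 10 of them, Rian in the same region held 3 and Ftx held 2. Mature microRNAs of the main carriers follow, with the seed (bases 2 to 8) in capitals.
mmu-miR-16-5p (Dleu2): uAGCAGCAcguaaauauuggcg
mmu-miR-374b-5p (B230206F22Rik): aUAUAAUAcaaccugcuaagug
mmu-miR-370-3p (Rian): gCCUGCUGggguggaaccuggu
mmu-miR-410-3p (Mirg): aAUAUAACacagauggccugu
mmu-miR-453 (Mirg): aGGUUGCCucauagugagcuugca
mmu-miR-496a-5p (Mirg): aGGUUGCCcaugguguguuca
Among the 35 mature sequences only miR-453 and miR-496a-5p shared a seed, GGUUGCC. Mature microRNAs were not measured in these libraries, so the values of Mirg, Rian, Dleu2 and Ftx are those of the host transcripts.

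Promoters (250 bases before the start to 50 after it) were available for 122 of the 195. Each motif was searched on both strands, and none of the strings contains another. The E-box CACGTG was present in 16 of the 122 (13.1%, against 8.09% of all 27025 genes with a promoter) and the cyclic AMP response element TGACGTCA in 8 (6.56% against 2.03%). The nuclear receptor half-site AGGTCA was present in 12 (9.84% against 18.1%), the forkhead motif GTAAACA in 1 (0.820% against 4.05%) and the GATA motif AGATAA in 9 (7.38% against 12.7%). CCAAT stood in 49 (40.2% against 41.1%) and TATAAA in 15 (12.3% against 15.7%). These matches are a description of the windows and show no binding.

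Together the 195 genes took 0.146% to 0.176% of a pup's counts. Their median level was 2.47 CPM, against 11.7 CPM over all genes tested, and 81 of them lay under 2 CPM. Per length they were also low, with a median of 0.943 CPM per kb of exon against 3.75 for all genes tested. Their exons spanned a median of 2910 bases in 3 exon blocks, against 3121 bases in 8 blocks for all genes tested. Counts were concentrated in few genes: the 5 most abundant held 39.0% of the summed CPM and the 10 most abundant 51.0%.

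The 3 highest levels per kb were those of snoRNA carriers. 2410006H16Rik, which holds Snord49a, Snord49b and Snord65, had 45.9 CPM per kb. Gas5, the host of 9 annotated snoRNAs and known from growth-arrested cells, had 31.0. Rian followed with 23.0, a long imprinted transcript expressed from the maternal chromosome that carries 13 annotated snoRNA genes. 0610005C13Rik (22.8), a transcript of unknown function, and Cyrano (19.4), which binds miR-7, came next. 2410004N09Rik (17.4), 1810058I24Rik (17.4, listed by RefSeq as protein coding), Firre (16.5), Snhg1 (12.6) and Snhg5 (11.8) completed the 10 highest. Tug1, a long RNA widely expressed across tissues, stood at 10.1. Over all 10 litters, the per kb ranges of every pair of neighbours among the 10 overlapped or met. Within a group 3 pairs did not overlap. 2410006H16Rik lay above Gas5 in MNR litters (44.7 to 60.3 against 24.6 to 34.8). 0610005C13Rik lay above Cyrano in both groups (20.5 to 24.2 against 17.3 to 19.9 in control, 21.9 to 26.3 against 19.1 to 21.4 in MNR litters). Firre lay above Snhg1 in both groups (14.3 to 18.6 against 11.9 to 13.7 in control, 13.7 to 18.4 against 10.9 to 13.5 in MNR litters).

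**Figure D1:**
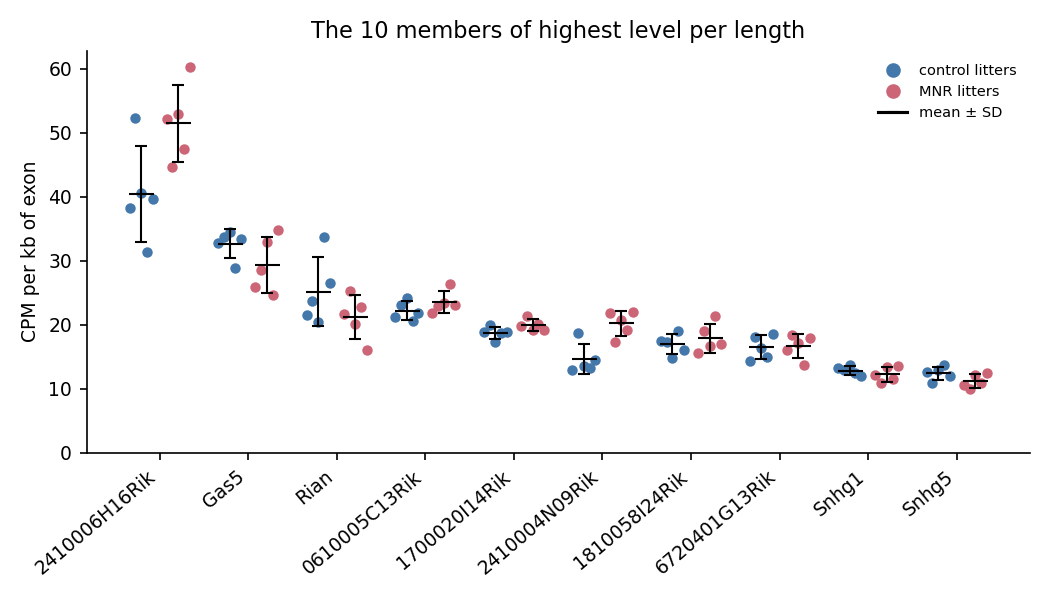
The 10 lincRNA genes of highest level per length, in CPM per kb of exon (vertical axis), by gene along the horizontal axis. Points are the 5 control (blue) and 5 MNR (red) litters, and the bars show the mean ± SD. 2410006H16Rik is the highest, and the control and MNR points overlap for each of the 10.

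By raw level, which favours long transcripts, Rian was the most abundant with 189 CPM, followed by Cyrano with 161 CPM and Gas5 with 117 CPM. In Cyrano the control litters had 144 to 165 CPM (median 156) and the MNR litters 159 to 178 CPM (median 164). The groups overlapped, and the change was 0.09 (SE 0.06, adjusted p = 0.427). Tug1 had 69.0 ± 1.41 CPM in control and 66.0 ± 2.94 CPM in MNR litters, with overlapping litters and a change of -0.06 (SE 0.05, adjusted p = 0.492).

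The nuclear RNAs Malat1 (221 CPM, change -0.20, SE 0.17) and Neat1 (170 CPM, change 0.16, SE 0.09) carry another biotype in this annotation and are not among the 195, and neither passed the threshold. Genes for the protein partners of such RNAs were also examined. Of 20 paraspeckle protein genes 0 passed by edgeR (median -0.09), with 6 at an unadjusted p under 0.05, 3 called by DESeq2 and 3 by limma-voom. Of 18 nuclear RNA decay genes 0 passed by edgeR (median -0.04), with 5, 3 and 3 by the same counts. Of 15 speckle and splicing genes 1 passed, Srsf6, a splicing factor, which fell from 203 ± 13.2 to 159 ± 12.4 CPM (change -0.36, SE 0.07, adjusted p = 0.0441), beside 0.666% of all genes tested. The same counts for this list were 5 at an unadjusted p under 0.05 and 3 each by DESeq2 and limma-voom (Srsf6, Srsf5 and Srsf3 by both), with a median change of -0.03. The Srsf6 call was lost when any of 7 litters was left out (control A, C, D or E, MNR A, B or E), with adjusted p from 0.0731 to 0.119. Of 6 further named noncoding RNAs outside the 195 (H19, Meg3, Dnm3os, Snhg3, Nespas and Mir17hg) 0 passed by edgeR, with a median change of -0.17. Of these, 3 had an unadjusted p under 0.05, and DESeq2 called 1, Dnm3os, and limma-voom 0. Beside the counts of these lists, 19.6% of all genes tested had an unadjusted p under 0.05, and DESeq2 called 7.49% and limma-voom 6.74%. Each list holds few genes.

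Nutrient restriction was followed by little change in the set as a whole. Of the 195 genes 1 passed the threshold, Atp10d, which was higher in MNR litters, and 0 were lower by edgeR. That is 0.513% of the set, beside 0.666% of all genes tested (117 of 17573), so the share was near the background. At an unadjusted p under 0.05 there were 25 genes, 13 higher and 12 lower, or 12.8% of the set, beside 19.6% of all genes tested. Litters of the groups did not overlap in 7 genes (3.59%), beside 4.50% of all genes tested. The median change was -0.00740, against -0.00271 over all genes tested, with 95 genes above 0 and 100 below. The changes themselves were of modest size, with 15 of 195 beyond 0.5 in either direction. The median SE was 0.14, against 0.10 for all genes tested, so at the level of most of these genes a small change could not have been detected.

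DESeq2 on the same litter sums called 10 of the 195 (5 higher, 5 lower), beside 7.49% of all genes with an adjusted p. Limma-voom on the 20 pups with the litter as a random effect also called 10 (5 and 5), beside 6.74% of all genes. The methods called 9 in common: Atp10d, Gm16719, 2410004N09Rik and Gm15787, which were higher, and 4732419C18Rik, Snhg4, 1300002E11Rik, Bbip1 and D030028A08Rik, which were lower. The summed level of the 195 genes was 1584 ± 26.7 CPM in control and 1573 ± 47.2 CPM in MNR litters, with 1555 to 1620 CPM against 1509 to 1632 CPM, and the groups overlapped.

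**Figure D2:**
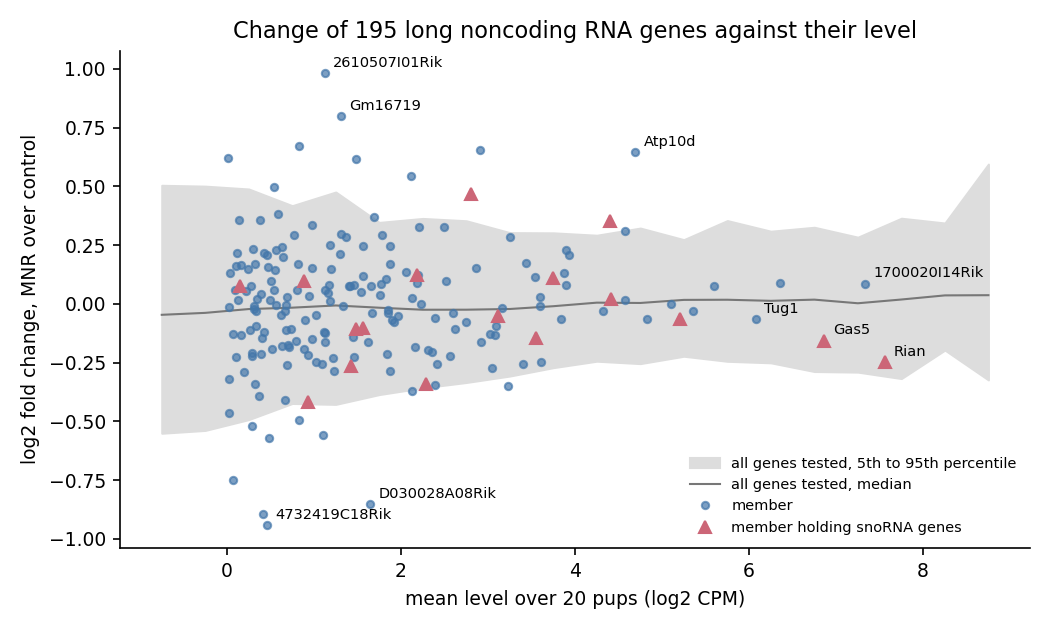
Log2 fold change of MNR over control (vertical axis) against the mean level over 20 pups in log2 CPM (horizontal axis) for the 195 genes. Circles are single genes, triangles those that hold snoRNA genes, the grey band spans the 5th to 95th percentile of all genes tested at that level, and the grey line is their median. Atp10d stands above the band at 25.8 CPM, while Gas5, Rian, Tug1 and 1700020I14Rik (Cyrano) lie inside it.

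Atp10d (ENSMUSG00000046808, mm9 chr5:72594568-72690014, + strand) is a homologue of the P4-type ATPases, flippases that move lipids across membranes. The mouse reference strain carries a premature stop in it, and RefSeq lists it as a transcribed pseudogene, so it is no lincRNA in the usual sense. Whether the CD-1 pups carry the stop was not examined. The control litters had 21.1, 18.6, 20.5, 19.1 and 21.8 CPM. The MNR litters had 35.9, 28.3, 31.3, 24.98 and 37.9 CPM. Every MNR litter was above every control litter. The means were 20.2 ± 1.35 and 31.7 ± 5.33 CPM, a change of 0.65 (SE 0.11, adjusted p = 0.0286), or 1.57-fold. The call was lost when any of 8 litters was left out (control A, C, D or E, MNR A, B, C or E), with changes of 0.57 to 0.69 and adjusted p from 0.0534 to 0.0834. Without the 3 pups with pancreatic transcripts it was 0.63 (adjusted p = 0.0218). Corin, a serine protease gene 1250 bases away on the opposite strand, had 0.649 ± 0.171 against 1.06 ± 0.284 CPM, a change of 0.70 (SE 0.25, adjusted p = 0.152).

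Gm16719 (mm9 chr5:28346005-28397645, - strand) had the largest rise among the 9 genes that both other methods called, but its adjusted p by edgeR was 0.0535. It starts 307 bases from Insig1, the sterol-regulated brake on cholesterol synthesis, and runs away from it. Control litters had 1.87, 1.80, 1.62, 1.53 and 2.32 CPM and MNR litters 2.904, 4.33, 3.22, 2.41 and 3.04 CPM. The lowest MNR litter lay just above the highest control litter, and the change was 0.80 (SE 0.17). Insig1 had 453 ± 54.5 CPM in control and 340 ± 98.0 CPM in MNR litters, a change of -0.41 (SE 0.17, adjusted p = 0.210). MNR litter B had the highest Gm16719 and the lowest Insig1 (236 CPM). Among MNR litters, D had the lowest Gm16719 and the highest Insig1 (492 CPM). Among control litters, E had the highest of both (2.32 and 502 CPM). A relation between the levels of these genes was not tested.

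4732419C18Rik, an uncharacterised transcript on chromosome 8, was lower in MNR litters. Its control litters had 2.11, 1.29, 2.47, 1.87 and 1.25 CPM, and its MNR litters 0.794, 0.892, 1.24, 0.917 and 0.833 CPM. The groups did not overlap, though control litter E and MNR litter C nearly met. The change was -0.94 (SE 0.21, adjusted p = 0.0587). Bbip1 differed by a small amount with little spread, at 12.8, 12.6, 13.3, 13.7 and 13.5 CPM in control and 11.4, 11.4, 11.3, 11.9 and 9.63 CPM in MNR litters. All MNR litters were below all control litters, and the change was -0.25 (SE 0.07, adjusted p = 0.0819). 1300002E11Rik, which starts 6503 bases from the gene of the peroxisomal enzyme Ehhadh, had 10.8 to 11.8 CPM in control and 8.96 to 10.9 CPM in MNR litters. The groups met at their edges, and the change was -0.26 (SE 0.07, adjusted p = 0.0786). Gm15787, which overlaps the ubiquitin ligase gene Chfr on the other strand, had 1.20 to 1.61 CPM in control and 1.61 to 2.99 CPM in MNR litters. The groups met at their edges, with a change of 0.67 (SE 0.18, adjusted p = 0.0831). Gt(ROSA)26Sor, the transcript of a locus widely used for transgene insertion, had 8.60 to 13.2 CPM in control and 6.47 to 9.11 CPM in MNR litters (change -0.35, SE 0.13, adjusted p = 0.165). 4930594M22Rik had 0.800 to 1.95 CPM in control and 0.649 to 1.06 CPM in MNR litters (change -0.75, SE 0.24, adjusted p = 0.123). On the opposite strand it shares 118 exon bases with A2ld1 (change -0.14, adjusted p = 0.271) and 1582 with Tmtc4 (change -0.30, adjusted p = 0.256). Gdap10, which overlaps the NAD salvage gene Nampt on the same strand, had 2.81 ± 0.808 against 3.63 ± 0.694 CPM (change 0.37, SE 0.20, adjusted p = 0.322). The litters of the groups overlapped in all 3.

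**Figure D3:**
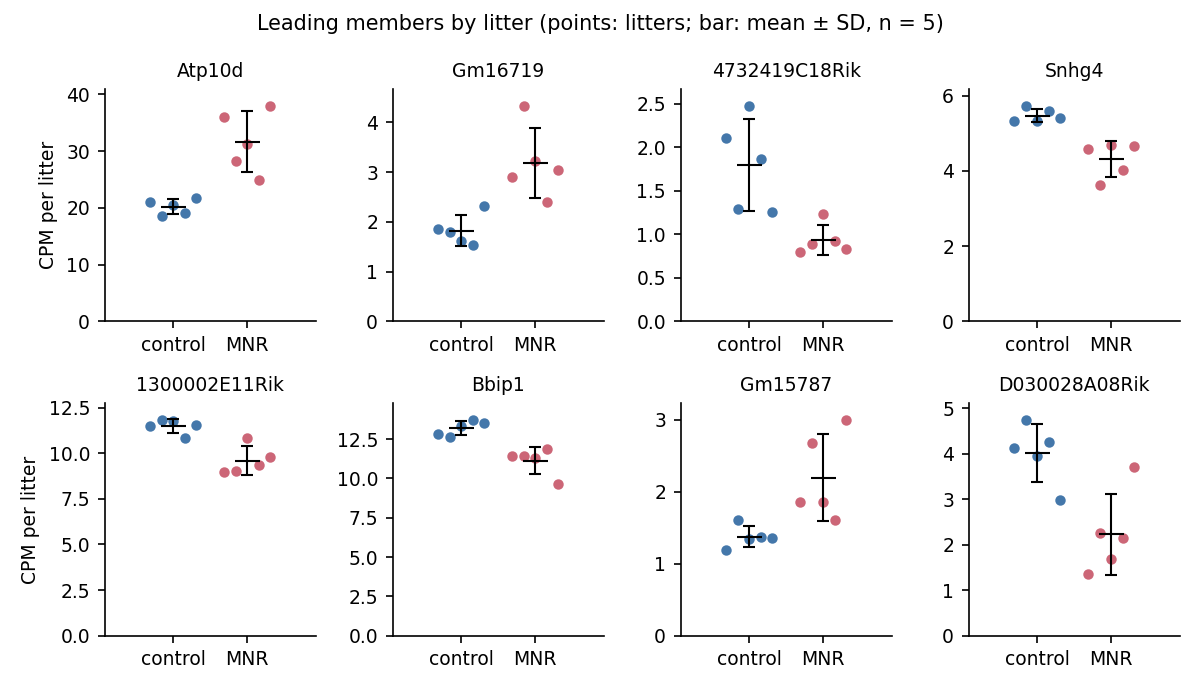
CPM per litter (vertical axis, from 0) of 8 lincRNA genes of small p, in control and MNR litters (horizontal axis). Points are litters and bars the mean ± SD of 5. Atp10d, Gm16719, 4732419C18Rik, Snhg4 and Bbip1 have groups that do not overlap, and D030028A08Rik has 1 MNR litter, at 3.69 CPM, within the control range.

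Host genes of snoRNAs had changes in both directions. Of the 195, 17 contain an annotated snoRNA gene on their own strand, and 0 passed the threshold by edgeR. DESeq2 and limma-voom each called 2 of them, Snhg4 and 2410004N09Rik, beside 7.49% and 6.74% of all genes by the same methods. At an unadjusted p under 0.05 there were 4 (23.5%, beside 19.6% of all genes tested), with 2 higher and 2 lower, and the median change of the 17 was -0.06. These shares rest on few genes. Snhg4, host of H/ACA snoRNAs that guide pseudouridine formation, had 5.34, 5.72, 5.32, 5.58 and 5.41 CPM in control litters. Its MNR litters had 4.59, 3.62, 4.70, 4.04 and 4.66 CPM. All lay below the control litters, and the change was -0.34 (SE 0.09, adjusted p = 0.0778). 2410004N09Rik, which holds a snoRNA gene on chromosome 18, had 5.19 to 7.52 CPM in control and 6.92 to 8.85 CPM in MNR litters. Only control litter B, at 7.52 CPM, reached the MNR range, and the change was 0.47 (SE 0.11, adjusted p = 0.0675).

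2410006H16Rik had 17.7, 24.1, 18.7, 14.5 and 18.3 CPM in control litters and 24.1, 20.6, 24.4, 21.9 and 27.9 CPM in MNR litters. Control litter B again lay within the MNR range. The change was 0.35 (SE 0.12, adjusted p = 0.147). Without control litter B it was 0.46 with an adjusted p of 0.03045, in a fit that called 843 genes in all against 117. With any other litter left out the adjusted p was 0.135 to 0.285. 2900076A07Rik, a host of a snoRNA and of the hairpin Mir1839, had 2.19 ± 0.378 against 1.64 ± 0.226 CPM, a change of -0.42 (SE 0.15, adjusted p = 0.152). The classical hosts had small values. Gas5 had 123 ± 8.31 CPM in control and 110 ± 16.5 CPM in MNR litters (change -0.16, SE 0.10, adjusted p = 0.405). Snhg1 had 37.8 ± 2.04 against 36.2 ± 3.44 CPM (change -0.06, SE 0.07). Snhg5 had 12.3 ± 1.06 against 11.1 ± 1.11 CPM (change -0.14, SE 0.08), Snhg12 a change of 0.11 (SE 0.11) and Snhg7 one of -0.05 (SE 0.07). Of the hosts shown above, Gas5 and Snhg7, which start at a C followed by 4 pyrimidines, had changes below 0. Snhg12 and 2410006H16Rik, which have other pyrimidine runs at the start, had changes above 0. Snhg5, with no pyrimidine at its listed start, was below 0 as well. 1700020I14Rik, which is no snoRNA host but has the same start letters as Gas5, was above 0 (change 0.09). Most of these changes are small beside their SE, and a link between start sequence and direction was not tested.

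Imprinted regions held 5 of the genes, of which 0 passed the threshold by edgeR, DESeq2 or limma-voom or had an unadjusted p under 0.05. Over all genes tested, edgeR called 0.666%, DESeq2 7.49% and limma-voom 6.74%, and 19.6% had an unadjusted p under 0.05. With only 5 genes, a count of 0 says little beside these shares. The 3 from the Dlk1-Dio3 region of chromosome 12 all had values below 0. Rian had 177, 194, 167, 277 and 217 CPM in control litters and 178, 207, 165, 187 and 132 CPM in MNR litters. Control litter D was the highest, the groups overlapped, and the change was -0.25 (SE 0.15, adjusted p = 0.384). Mirg had 4.64, 6.15, 5.17, 6.99 and 6.21 CPM against 4.42, 5.79, 5.34, 5.09 and 3.82 CPM, a change of -0.25 (SE 0.14, adjusted p = 0.325). In both genes control litter D was the highest and MNR litter E the lowest. Dio3os had 2.07 ± 0.542 against 1.46 ± 0.406 CPM, a change of -0.49 (SE 0.23, by edgeR unadjusted p = 0.0517 and adjusted p = 0.258). It starts 1000 bases from Dio3, the gene of the thyroid hormone inactivating deiodinase, on the opposite strand and runs away from it. Dio3 stood at 0.248 CPM and was not tested. Meg3, from the same region and left out by the rule, had a change of -0.04 (SE 0.10). Airn, the transcript that silences Igf2r on the paternal chromosome, had 3.65 ± 0.173 against 3.58 ± 0.531 CPM (change -0.03, SE 0.11). Igf2as had 11.1 ± 1.56 against 12.1 ± 1.59 CPM (change 0.12, SE 0.11).

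Of the 10 genes on the X chromosome, 3 are known regulators. Jpx (Enox), an activator of Xist, had 2.51, 2.87, 3.06, 2.42 and 2.64 CPM in control and 3.08, 3.52, 2.96, 3.03 and 3.46 CPM in MNR litters. The groups overlapped through control litter C, and the change was 0.25 (SE 0.10, adjusted p = 0.207). Ftx had 5.33 ± 1.01 against 5.12 ± 0.178 CPM (change -0.06, SE 0.13). Firre, a nuclear RNA that organises contacts between chromosomes, had 23.7 ± 2.68 against 24.0 ± 2.74 CPM (change 0.02, SE 0.10). Xist lay under the level of the rule at 0.393 CPM in these males. Of the carriers of microRNAs outside these regions, Dleu2 had 3.83 ± 0.656 against 3.64 ± 0.445 CPM, a change of -0.08 (SE 0.13). Ttc28, which RefSeq lists as protein coding and which holds Mir701, had 11.9 ± 0.505 against 12.2 ± 0.756 CPM (change 0.03, SE 0.06). Pvt1, the long transcript beside Myc, had a change of 0.05 (SE 0.14).

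Many of the genes overlapped a coding gene or lay near one, though the same shares for other genes are not given here. In 91 of the 195 the gene body overlapped that of a protein-coding gene, in 85 of them on the opposite strand. Counting both overlapping and separate pairs, 76 (39.0%) had the 5′ end of the nearest coding gene on the opposite strand within 1 kb of their own. Such pairs can share a promoter. The nearest coding gene was tested for 173 of the 195, and it can be shared, as Rtl1 is by Rian and Mirg. In 2 of these 173 pairs the coding gene passed the threshold, beside 0.666% of all genes tested. Both calls were lost when any of 8 litters was left out (control A, C, D or E, MNR A, B, C or E). One was Sun2, a protein of the inner nuclear membrane that links nucleus and cytoskeleton, 162 bases from the start of Gm16576. Sun2 rose from 98.8 ± 10.9 to 131 ± 7.17 CPM (change 0.40, SE 0.08, adjusted p = 0.0461, or 0.0660 to 0.123 where lost). Gm16576 had 1.30 ± 0.205 against 1.69 ± 0.201 CPM, a change of 0.38 (SE 0.14, adjusted p = 0.164). The other was Fkbp4, a co-chaperone of Hsp90 in steroid receptor complexes, 80 bases from Gm10069. Fkbp4 fell from 103 ± 14.5 to 73.9 ± 3.57 CPM (change -0.48, SE 0.09, adjusted p = 0.0422, or 0.0626 to 0.119 where lost), while Gm10069 had a change of 0.15 (adjusted p = 0.765).

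Panct2 (Gm5101) starts 50 bases from Slco4c1, an organic anion transporter gene on the other strand. Panct2 had 5.79, 5.34, 5.81, 5.72 and 6.35 CPM in control litters and 7.60, 9.44, 6.48, 6.56 and 15.7 CPM in MNR litters. Slco4c1 had 2.99, 3.84, 3.10, 2.68 and 4.16 CPM in control litters and 10.7, 11.01, 5.40, 4.45 and 37.0 CPM in MNR litters. Both genes were above all control litters in every MNR litter, and both were highest in MNR litter E. The change was 0.65 (SE 0.22, adjusted p = 0.132) in Panct2 and 2.03 (SE 0.51, adjusted p = 0.0739) in Slco4c1. Without MNR litter E the change in Panct2 was 0.37 (adjusted p = 0.169) and that in Slco4c1 1.23 (adjusted p = 0.109). Slco4c1 passed the threshold without MNR litter D (change 2.26, adjusted p = 0.0324), by DESeq2 (adjusted p = 0.00983) and by limma-voom (adjusted p = 0.0321). C030037D09Rik, 132 bases from the RNA-binding protein gene Msi2, differed from its neighbour. It had 3.63 to 4.40 CPM in control and 4.42 to 6.18 CPM in MNR litters, groups that did not overlap (change 0.33, SE 0.11, adjusted p = 0.132). Msi2 had 36.7 ± 1.52 against 37.0 ± 1.15 CPM, a change of 0.01 (SE 0.05). Gm17566, antisense to the hepatic fate regulator Prox1, had 2.23 ± 0.594 against 3.42 ± 0.854 CPM (change 0.62, SE 0.21, adjusted p = 0.145). Prox1 had 50.2 ± 4.51 against 51.6 ± 9.15 CPM (change 0.04, SE 0.11).

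**Figure D4:**
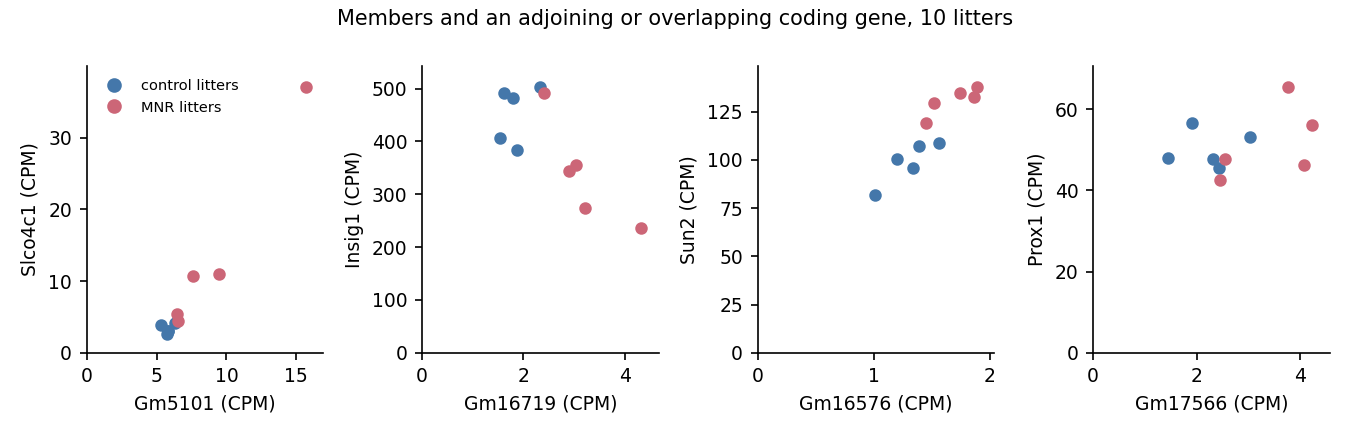
CPM of a coding gene (vertical axis) against CPM of the lincRNA gene beside or across from it (horizontal axis) in each of 10 litters, control in blue and MNR in red. In the panel of Gm5101 and Slco4c1, MNR litter E stands apart at 15.7 and 37.0 CPM. In the panel of Gm16719 and Insig1, MNR litter B stands at 4.33 and 236 CPM and control litter E at 2.32 and 502 CPM.

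Exon bases were shared with another gene in 88 of the 195, and in 76 of them with a gene on the opposite strand. The library kit keeps strand, but whether the counting used it is not stated in the labels. If reads of the opposite gene, taken as even along its exons, had been counted in full over the shared bases, they would have added more than the listed level in 25 of the 76 and more than 3 times it in 12. Igf2as shares 98 exon bases with Igf2 (5483 CPM), which would add 97.8 CPM, and it was listed at 11.6 CPM. Read coverage over the shared bases was not measured here.

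D030028A08Rik had 4.12, 4.73, 3.95, 4.25 and 2.99 CPM in control litters and 1.37, 2.25, 1.68, 2.16 and 3.69 CPM in MNR litters. MNR litter E lay among the control litters, and the change was -0.85 (SE 0.23, adjusted p = 0.0847). Without the 3 pups with pancreatic transcripts, 1 of them from MNR litter E, it was -1.16 (adjusted p = 0.0273). Etohd2 shares 981 exon bases with Zcchc6, a terminal uridylyl transferase gene on the opposite strand. It had 1.21 ± 0.237 against 1.70 ± 0.244 CPM (change 0.50, SE 0.16, adjusted p = 0.126), and Zcchc6 had 93.5 ± 7.55 against 107 ± 6.12 CPM (change 0.20, SE 0.07, adjusted p = 0.136). Whether reads of the opposite strand entered such counts was not tested.

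The genes varied more between animals than the bulk of tested genes, which were expressed at higher levels. The median SD of log2 CPM was 0.26 between littermates and 0.23 between the means of litters of a group. Over all genes tested the medians were 0.17 and 0.16. In the 29 genes of at least 10 CPM the medians were 0.14 and 0.16, and in the 81 under 2 CPM 0.32 and 0.26, so the spread went with the level. The SD between litter means exceeded that between littermates in 79 of 195 genes (40.5%), and in 43.0% of all genes tested. A litter mean averages 2 pups, so its SD would be the smaller one even without any difference between litters. These shares therefore do not tell in how many genes litters differed. Abhd1, a pseudogene in RefSeq that shares 1575 exon bases with Preb on the other strand, had SDs of 0.65 within and 0.65 between litters at a level of 14.9 CPM. Its pups had 2.12 to 26.2 CPM, and the littermates of control litter A had 13.4 and 2.12 CPM. Atp10d, in contrast, varied little in control pups (17.2 to 23.7 CPM), while the littermates of MNR litter A had 26.0 and 47.1 CPM.

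2610507I01Rik, singled out after its values were seen, had the largest between-litter SD of the 195 (1.43). In 8 pups it stood at 0.116 to 0.469 CPM and in the other 12 at 2.30 to 5.45 CPM, with no pup between. The low pups were 6 control and 2 MNR pups, and the high ones 4 control and 8 MNR pups. In control litters D and E 1 littermate was low and the other high, with 2.30 and 0.380 CPM in litter D and 3.67 and 0.354 CPM in litter E. The change between groups was 0.98 (SE 0.66, adjusted p = 0.448), and Mrpl55, the mitochondrial ribosomal protein gene 101 bases away, had 9.0 ± 0.438 against 8.89 ± 0.821 CPM.

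**Figure D5:**
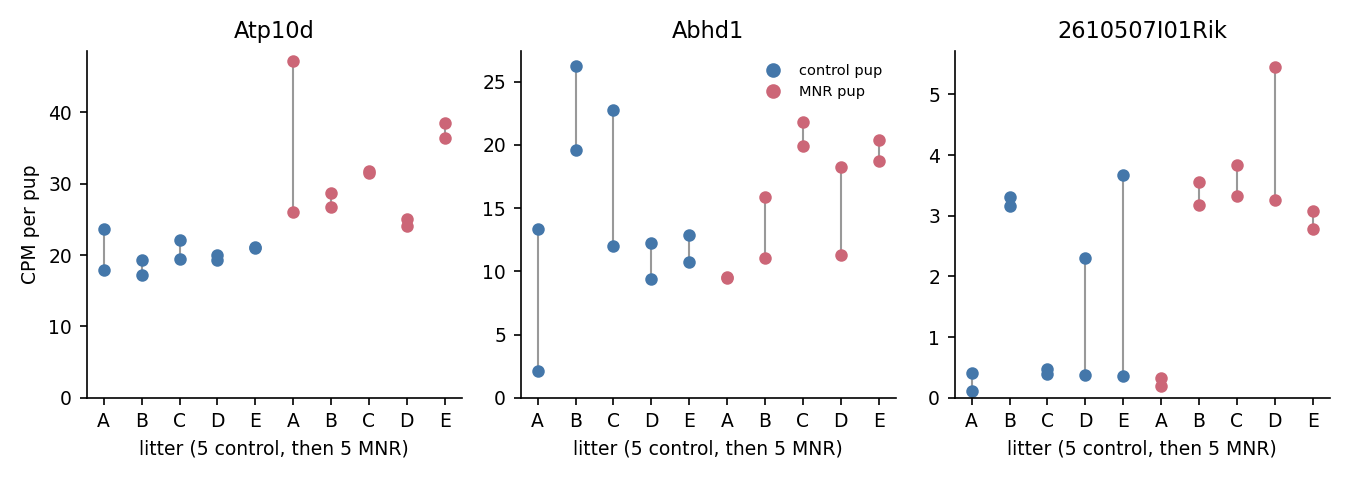
CPM per pup (vertical axis) of Atp10d, Abhd1 and 2610507I01Rik by litter (horizontal axis, 5 control in blue and 5 MNR in red), with littermates joined by a line. In 2610507I01Rik the pups fall at 0.116 to 0.469 or at 2.30 to 5.45 CPM, and in control litters D and E the littermates differ.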

How the data were processed

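The deposited values are whole-number counts per transcript, 1 file per pup, made by the authors. The submitters' processing notes name build mm9 and the tools Bowtie2, FastQC, edgeR and DESeq2. No source used here gives the counting tool, its use of strand or its treatment of reads with several matches, so values of genes that share sequence are uncertain. A deposited gene table was not used. Counts were summed per gene with GENCODE M1 (0.0788% to 0.154% of counts matched no gene) and over littermates. After filterByExpr (minimum count 10) and TMM scaling, edgeR 4.0.16 tested each gene (quasi-likelihood, two-sided, Benjamini-Hochberg), a procedure tested on simulated data. DESeq2 1.42.0 and limma 3.58.1 were alternatives. Means per gene and levels per kb use unscaled totals. No 2 pups had identical values. The labels give litters, so p-values measure the spread between litters.

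The members and lists were chosen with earlier results of these data known. Genes named are those past the threshold, the 8 of smallest p in each direction, the 10 of highest level per kb, those without a clone name, and 5 on each side of the level limit. Others were named as coding neighbours, overlapping genes or from lists, and 2610507I01Rik after its values were seen. Some results are not reported here. Sequences are from RefSeq (GRCm38.p6).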

Additional observations from a re-analysis of the deposited data

Results flagged for a closer look

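In 7 of 96 sets of 5 litters examined for the named genes, the highest or lowest litter lay far from the other 4. Chance gives about 1 in 20. MNR litter C was the highest for 4732419C18Rik (1.24 CPM, the others 0.794 to 0.917 CPM), A430018G15Rik (1.48 CPM, the others 1.09 to 1.19 CPM) and Trmt61b (2.54 CPM, the others 1.56 to 1.68 CPM). MNR litter E was the lowest for Bbip1 (9.63 CPM, the others 11.3 to 11.9 CPM). Control litter A was the highest for 2610020C07Rik (1.41 CPM, the others 0.993 to 1.11 CPM). Control litter B was the highest for 2410004N09Rik (7.52 CPM, the others 5.19 to 5.81 CPM), and control litter C the lowest for Snord123 (2.33 CPM, the others 3.04 to 3.18 CPM).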

How the results depend on the processing

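The count of lincRNA genes past the threshold (1) depended on the choices made, while the median change and the summed level moved by less than the spread between litters under every alternative run. The count was 10 with DESeq2, 10 with limma-voom and a litter random effect, 16 with pups as separate libraries, 5 with pup 2 of each litter alone and 0 with pup 1 alone (15 at an unadjusted p under 0.05, edgeR). It was 2 without a filter, 2 with a strict filter, 2 without scaling, 9 at a threshold of 0.1 and 0 at 0.01. Among the 144 RefSeq lncRNA genes it was 0 (19 at an unadjusted p under 0.05), and without the 3 pups with pancreatic transcripts 5; both alternatives were chosen after seeing the data. Leaving out 1 litter gave 0 to 6, with 0 in 8 of 10 cases (23 to 32 at an unadjusted p under 0.05), 6 when control litter B was left out and 3 when MNR litter D was. Calls over all genes moved as well, from 117 to 0 to 30 in the 8 cases. They were 843 without control litter B, 512 without MNR litter D and 2301 with pups as separate libraries. DESeq2 made 1163, limma-voom 1088, pup 2 alone 499 and pup 1 alone 0. Without a filter and with a strict filter there were 145 each, and without scaling 109. Without the 3 pups with pancreatic transcripts there were 215. Calls over all genes at 0.1 and 0.01 are not given here, so those counts lack a background. With the litter letter as a replicate block the count of lincRNA genes was 3, beside 232 calls over all genes. The letters name different dams, their deviations correlated at -0.00928 to 0.184, and 2 of 5 control litters correlated best with their own letter. The median change ranged from -0.04 to 0.02, and the log2 ratio of the summed level from -0.02 to 0.02. No named gene past the threshold in any fit changed sign, and 6 uncalled values moved past 0 by more than 1 SE.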
